A study of Mus musculus with 20 samples.

Results

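Non-growing oocytes (NGO) of the postnatal day 10 (P10) mouse ovary were compared after conditional deletion of the chromatin remodeller gene Chd4. Of the 53722 genes in the deposited oocyte table, 11437 had a TPM (a transcript level scaled for gene length and library size) of at least 1 in at least 2 of the 4 P10 NGO libraries, and these genes are described here. The 2 knockout libraries (GcKO) carried Chd4 f/f with the Gdf9-iCre transgene (Tg/+), and the 2 control libraries (Gctrl) carried Chd4 f/f with no Cre, so that the knockouts differed from the controls in both deletion and Cre. Growing oocytes (GO) from the same age were labelled GcKO and Gctrl with the same 2 genotypes. At P1 and P5 the knockout NGO (DcKO) were Chd4 f/- with Ddx4-Cre and the controls (Dctrl) were Chd4 f/+ with Ddx4-Cre, heterozygous for Chd4 and carrying Cre. Each group had 2 libraries on a mixed background of the C57BL/6, 129S1/Sv and FVB/NJ strains. The labels give no sort or gate, no size that separated NGO from GO, and no word on whether replicates were separate animals or pools. The p-values therefore measure only the spread between libraries, which the main fit pools over all 16 oocyte libraries.

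CHD4 is the helicase-like ATPase of the nucleosome remodelling and deacetylase (NuRD) complex, which couples nucleosome sliding to histone deacetylation and restrains transcription at many genes in embryonic stem cells and somatic tissues. Non-growing oocytes are the arrested cells of primordial follicles that make up the ovarian reserve. Gdf9 is transcribed by oocytes from the primordial follicle stage onward, and its promoter drives the Cre used here. The series title names the formation and maintenance of the ovarian reserve as the subject of the study.

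Chd4 itself was low at this stage. The gene (ENSMUSG00000063870, + strand of GRCm38 chr6:125095981-125130591) had 1.34 and 0.247 TPM in GcKO and 1.63 and 1.85 TPM in Gctrl, which was 101 and 16 reads in GcKO and 101 and 104 reads in Gctrl. The lowest value was that of GcKO replicate 2, and GcKO replicate 1 lay close to the controls. The log2 fold change was -0.68 (SE 0.50, limma adjusted p = 0.615), which did not pass the test. TPM covers the whole gene, so reads outside the deleted exons count as well and the level does not measure how much of the coding sequence was lost.

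The 4 libraries held 26.9 and 23.8 M reads in GcKO and 22.7 and 19.7 M reads in Gctrl, as recovered from the TPM values, and 11820 and 10003 genes reached TPM 1 in GcKO against 10940 and 10213 in Gctrl. Across the 11437 genes the log2 values of replicates correlated with a Pearson r of 0.879 in GcKO and 0.879 in Gctrl, and between 0.806 and 0.850 across genotypes. Correlations across genes describe the libraries, since genes are not independent replicates. The P10 NGO replicates were further apart than those of the other oocyte groups. The pooled standard deviation within the group was 0.903 in GcKO NGO and 0.868 in Gctrl NGO on the log2 scale, against 0.779 and 0.590 in GcKO and Gctrl GO and 0.380 to 0.545 in the P1 and P5 groups. Because 1 estimate of spread was shared by all 16 oocyte libraries, the main SE and p-values can understate the spread of P10 NGO. The calls are also given with 1 weight per group, estimated from its spread over all genes tested (group weights). This setting was added after the spreads above had been seen. The weights were 0.591 and 0.754 in GcKO and Gctrl NGO, 0.574 and 1.11 in GcKO and Gctrl GO, and 1.05 to 1.87 at P1 and P5. GcKO GO had a lower weight than GcKO NGO despite its smaller spread above, so this setting need not correct fully for the spread. The labelled cell type was checked with 2 oocyte genes chosen after their values were seen. One was Figla, a transcription factor gene of oocytes, which had 1397 and 1078 TPM in GcKO and 1381 and 1704 TPM in Gctrl. Dppa3, a maternal chromatin protein gene, had 61227 and 52739 TPM in GcKO and 58013 and 62507 TPM in Gctrl, so that both were well expressed in each library. Of the other planned oocyte markers, the log2 fold change was -1.40 in Ddx4 (called lower), -1.65 in Gdf9 and -0.89 in Zp3. It was -0.54 in Sohlh1 and -0.24 in Kit, and 0.56 in Nobox, 0.52 in Lhx8 and 0.37 in Dazl. The 2 genes thus show oocyte RNA in each library, and not that oocyte markers were level between groups.

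Between GcKO and Gctrl, genes differed in both directions in P10 NGO. With limma on log2(TPM + 1) and Benjamini-Hochberg adjustment over 20470 genes, 393 genes passed an adjusted p of 0.05 (1.92% of genes tested, 3.44% of the 11437). Of these, 209 were higher in GcKO (1.02% of genes tested) and 184 were lower (0.899%). With groups weighted by their spread 122 genes passed, 67 higher and 55 lower, and all 122 were among the 393. A fit on the 8 P10 libraries alone called 41, of which 25 were among the 393. A fit on the 4 P10 NGO libraries alone called 0, with 1286 genes at an unadjusted p under 0.05, against 3186 in the fit of all 16 libraries. The median log2 fold change of the 11437 genes was -0.04 (0.02 when library medians were equalised), 47.8% were above 0, and 70.7% of them lay within 1 log2 unit of 0. In 4425 of the 11437 (38.7%) the GcKO and Gctrl libraries did not overlap, 2128 higher in GcKO and 2297 lower. All 393 called genes were among these, and a lack of overlap alone sets no gene apart.

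Which genes passed also depended on single libraries. Leaving out GcKO replicate 1 gave 1273 calls, 513 higher and 760 lower, and leaving out GcKO replicate 2 gave 472, 382 higher and 90 lower. Without Gctrl replicate 1 there were 658 calls, 297 higher and 361 lower, and without Gctrl replicate 2 there were 293, 110 higher and 183 lower. Thus the balance of higher and lower calls turned with the library left out, while 110 of the 393 genes passed in each of the 4 reduced fits, 63 higher and 47 lower. Of these, 95 also passed with group weights, 55 higher and 40 lower.

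**Figure D1:**
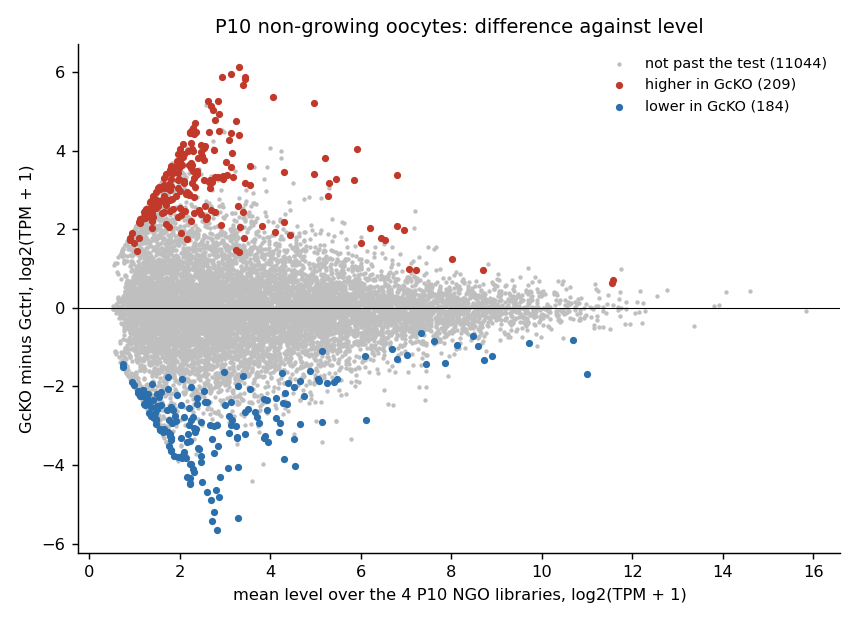
Difference between GcKO and Gctrl P10 NGO (vertical axis, log2(TPM + 1)) against the mean level over the 4 libraries (horizontal axis) for 11437 genes. Each point is a gene, and the 209 genes past the test that were higher in GcKO and the 184 that were lower lie at all levels, with most near the low end.

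By the values they were called on, the genes that rose were mostly low in control NGO. The median TPM of the 209 genes was 15.4 in GcKO and 0.355 in Gctrl. Of the 209, 134 were under TPM 1 in both control libraries, as were 630 of the 11437. The genes that fell were the mirror of this, with a median of 0.714 TPM in GcKO and 17.99 TPM in Gctrl. Of the 184, 90 were under TPM 1 in both knockout libraries, as were 453 of the 11437. These levels entered the calls, so they describe the called genes and support nothing further. In bulk samples a gene expressed by fewer cells and one expressed at a lower level per cell cannot be told apart. In the other control groups the 209 genes, which were chosen on the P10 NGO libraries, had medians of 5.37 TPM in P5 Dctrl NGO, 4.61 TPM in P1 Dctrl NGO and 1.76 TPM in P10 Gctrl GO. The medians over all 11437 genes were 14.1, 12.6 and 7.09 TPM in those groups and 10.3 TPM in P10 Gctrl NGO.

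Among the largest rises, Adh4, an alcohol dehydrogenase (ENSMUSG00000037797, + strand of GRCm38 chr3:138415466-138430892), had 80.7 and 83.1 TPM in GcKO and 0.268 and 0.0986 TPM in Gctrl. Both knockout libraries lay far above both controls, with a log2 fold change of 6.13 (SE 0.83, limma adjusted p = 0.00583). Arhgdib, a gene best known from blood cells (ENSMUSG00000030220, - strand of GRCm38 chr6:136923655-136941899), had 60.8 and 77.9 TPM in GcKO and 0.152 and 0.0838 TPM in Gctrl. Its groups were as clearly apart, at 5.97 (SE 0.78, limma adjusted p = 0.00459). Of 20 listed blood and immune markers 13, among them Ptprc, which marks white blood cells, were at 0 in all 4 libraries. The summed TPM of these 20 markers was 5.07 and 24.0 in GcKO and 0.102 and 13.3 in Gctrl, with overlapping groups, and their part in the Arhgdib result was not tested.

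Zfp54, a KRAB zinc finger gene (ENSMUSG00000023882, + strand of GRCm38 chr17:21423227-21435640), had 28.5 and 40.8 TPM in GcKO and 0.458 and 0.606 TPM in Gctrl. This was a log2 fold change of 4.52 (SE 0.42, limma adjusted p = 0.000792), and Zfp54 also passed the test in growing oocytes and at P5 and P1. Zinc finger genes with a Zfp symbol made up 10 of the 209 higher genes (4.78%), 8 of the 184 lower genes (4.35%) and 257 of the 11437 (2.25%). Klhl13, an X-linked substrate adaptor of a cullin ubiquitin ligase, had 49.2 and 25.2 TPM in GcKO and 0.305 and 0.336 TPM in Gctrl. Its groups did not overlap and differed by 4.78 (SE 0.45, limma adjusted p = 0.000792) on the log2 scale. Ifi27, an interferon-induced gene, had 15.97 and 39 TPM in GcKO and was listed at 0 in both Gctrl libraries (limma adjusted p = 0.00175).

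H2bu2, which encodes a histone H2B, had 96.9 and 24.4 TPM in GcKO and 1.27 and 0.466 TPM in Gctrl. The GcKO libraries were unequal and both above the controls, with a log2 fold change of 4.77 (SE 0.56, limma adjusted p = 0.00254). Srsf12, a member of the SR family of splicing factors, had 16.03 and 33.9 TPM in GcKO and 0.0823 and 0.0908 TPM in Gctrl. Its log2 fold change was 4.49 (SE 0.62, limma adjusted p = 0.00631). The 7 genes Adh4, Arhgdib, Zfp54, Klhl13, Ifi27, H2bu2 and Srsf12 passed whichever P10 NGO library was left out and with group weights. With the 8 P10 libraries fitted alone Arhgdib and Zfp54 still passed, while the limma adjusted p was 0.201 for Adh4, 0.0511 for Klhl13, 0.101 for Ifi27, 0.131 for H2bu2 and 0.233 for Srsf12.

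The remaining 5 of the 12 largest rises rested more on single libraries. Mzt2, a component of the gamma-tubulin ring complex, had 36.2 and 42.95 TPM in GcKO and 0.198 and 0.437 TPM in Gctrl (limma adjusted p = 0.0172, but 0.0549 without GcKO replicate 2 and 0.0544 without Gctrl replicate 2). Prxl2a, a peroxiredoxin-like gene, had 18.6 and 43.1 TPM in GcKO and 0.352 and 0.291 TPM in Gctrl (limma adjusted p = 0.0196, but 0.0801 without GcKO replicate 2, 0.06798 without Gctrl replicate 2 and 0.0824 with group weights). Both genes were under 1 TPM in both controls. The other 3 genes, Meioc, Ly6k and Majin, are described with the meiotic genes.

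**Figure D2:**
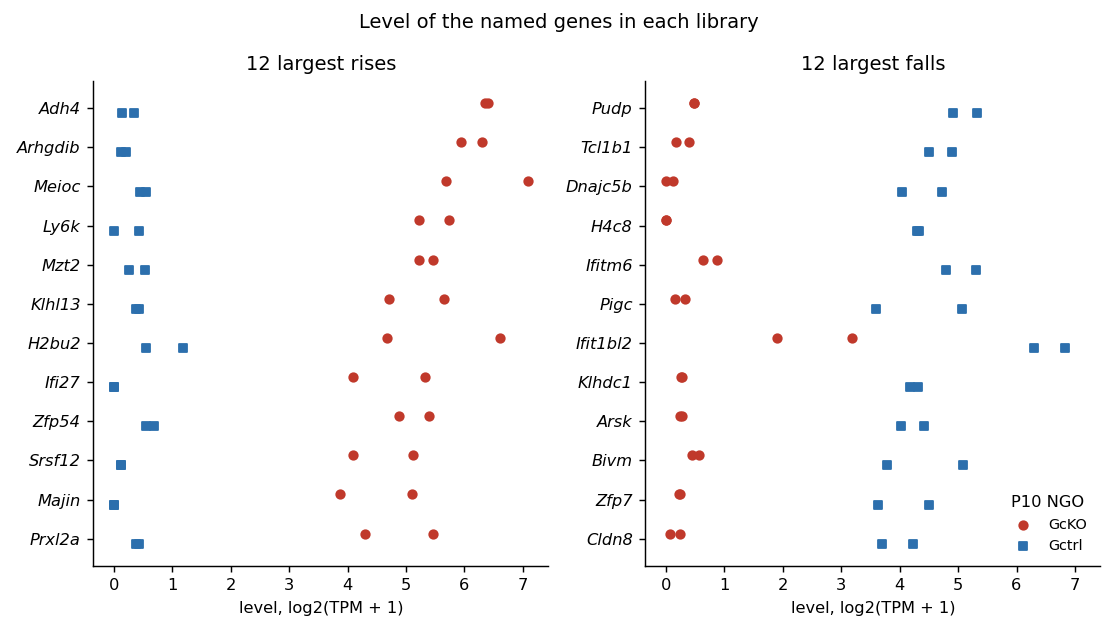
Level of the 12 genes with the largest rise (left) and the 12 with the largest fall (right) among named genes past the test, as log2(TPM + 1) on the horizontal axis, with 1 point per library (circles GcKO, squares Gctrl, 2 libraries each). By the rule that chose these genes, both GcKO libraries lie on the same side of both Gctrl libraries. GcKO replicates of H2bu2 and Ifit1bl2 are among the most spread.

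Among the largest falls, Pudp, a pseudouridine phosphatase gene, had 0.3996 and 0.389 TPM in GcKO and 38.8 and 29.3 TPM in Gctrl. The log2 fold change was -4.64 (SE 0.46, limma adjusted p = 0.00116). Ifitm6, a member of the interferon-induced transmembrane family (ENSMUSG00000059108, - strand of GRCm38 chr7:141015699-141017924), had 0.8202 and 0.547 TPM in GcKO and 26.6 and 38.4 TPM in Gctrl. Its groups were also far apart, at -4.30 (SE 0.39, limma adjusted p = 0.000792). Ifit1bl2, an IFIT family gene, had 8.12 and 2.72 TPM in GcKO and 78.05 and 113 TPM in Gctrl, with the 2 GcKO libraries unequal and both below the controls (limma adjusted p = 0.00792).

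Tcl1b1, a member of the TCL1 family that oocytes express (ENSMUSG00000066359, + strand of GRCm38 chr12:105159690-105166625), had 0.306 and 0.119 TPM in GcKO and 28.9 and 21.7 TPM in Gctrl. It fell by 4.43 on the log2 scale (limma adjusted p = 0.00254), while its better known relative Tcl1 had 676 and 355 TPM in GcKO and 801 and 831 TPM in Gctrl and did not pass (limma adjusted p = 0.137). H4c8, a histone H4 gene, was listed at 0 in both GcKO libraries and had 18.7 and 19.2 TPM in Gctrl (limma adjusted p = 0.00772). The other histone genes of its kind share most of their coding sequence, so how reads were divided among them is uncertain.

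Pigc, which encodes a subunit of the enzyme that starts GPI anchor synthesis, had 0.249 and 0.117 TPM in GcKO and 11.1 and 32.7 TPM in Gctrl. Its controls were unequal and both far above the knockouts (limma adjusted p = 0.007205). Arsk, a lysosomal sulfatase gene, had 0.1799 and 0.2101 TPM in GcKO and 15.3 and 20.4 TPM in Gctrl, with groups well apart (limma adjusted p = 0.00798). Bivm had 0.353 and 0.471 TPM in GcKO and 32.96 and 12.7 TPM in Gctrl (limma adjusted p = 0.00288) and also fell in growing oocytes (limma adjusted p = 0.00408). Pudp, Tcl1b1, H4c8, Ifitm6, Pigc, Ifit1bl2, Arsk and Bivm passed in every fit that left out 1 P10 NGO library and with group weights. With the 8 P10 libraries alone Pudp, Tcl1b1, H4c8 and Ifitm6 still passed, while the limma adjusted p was 0.217 for Pigc, 0.0909 for Ifit1bl2, 0.166 for Arsk and 0.156 for Bivm.

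The 4 other largest falls did not pass in every such fit. The DNAJ co-chaperone gene Dnajc5b had 0.0842 and 0 TPM in GcKO and 15.4 and 25.6 TPM in Gctrl (limma adjusted p = 0.0162, but 0.0503 without GcKO replicate 2 and 0.0722 without Gctrl replicate 2). The zinc finger gene Zfp7 had 0.182 and 0.1703 TPM in GcKO and 11.3 and 21.7 TPM in Gctrl (limma adjusted p = 0.0251, but 0.0723 without GcKO replicate 2, 0.111 without Gctrl replicate 2 and 0.0777 with group weights). Klhdc1 had 0.203 and 0.197 TPM in GcKO and 17.1 and 18.9 TPM in Gctrl (limma adjusted p = 0.0247, but 0.0693 without GcKO replicate 2, 0.0526 without Gctrl replicate 1, 0.0843 without Gctrl replicate 2 and 0.114 with group weights). These 3 genes were close to silent in both GcKO libraries. The tight junction gene Cldn8 had 0.18 and 0.0526 TPM in GcKO and 12.04 and 17.8 TPM in Gctrl (limma adjusted p = 0.0352, but 0.0511 without GcKO replicate 1, 0.09902 without GcKO replicate 2, 0.0584 without Gctrl replicate 1, 0.129 without Gctrl replicate 2 and 0.0934 with group weights).

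Gene lists are described by their measured genes, those at TPM 1 in 2 of the 4 libraries. The counts of each list stand beside 3.44% of the 11437 genes called and 47.8% with a log2 fold change above 0. At that share, 0 calls in a short list says little. Of the 11437 genes, 630 met this in the GcKO pair only and 453 in the Gctrl pair only, and such genes differ between groups by construction, so that a list's counts and median describe it and support nothing further.

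Some genes of meiotic prophase rose. Oocytes pair and recombine their chromosomes before birth and then arrest, and the proteins of the synaptonemal complex act mainly before that arrest. Of 44 listed genes 36 were measured, and 3 passed the test, all higher in GcKO (Sycp3, Meioc and Majin), and 0 were lower. The median log2 fold change of the 36 was 0.39, against 0.00 over all genes tested, and 19 of the 36 lay above 0. The median was 0.20 without GcKO replicate 1 and 0.64 without GcKO replicate 2. With group weights 0 of them passed.

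Sycp3, which encodes a structural protein of the synaptonemal complex (ENSMUSG00000020059, + strand of GRCm38 chr10:88459569-88473236), had 3871 and 3614 TPM in GcKO and 2417 and 2423 TPM in Gctrl. The knockout libraries were both higher and the controls were nearly equal, with a log2 fold change of 0.63 (SE 0.13, limma adjusted p = 0.0375, but 0.07696 without GcKO replicate 1, 0.0727 without GcKO replicate 2, 0.0843 without Gctrl replicate 1, 0.116 without Gctrl replicate 2 and 0.145 with group weights). The limma adjusted p of Sycp3 was 0.292 without the trend on level and 0.455 with the 8 P10 libraries fitted alone. Sycp1, whose product spans the complex, had 1015 and 1383 TPM in GcKO and 694 and 500.4 TPM in Gctrl, which did not pass (limma adjusted p = 0.0697).

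Meioc, whose product works with YTHDC2 to sustain the meiotic programme (ENSMUSG00000051455, + strand of GRCm38 chr11:102663716-102682237), had 50.2 and 135 TPM in GcKO and 0.365 and 0.465 TPM in Gctrl. GcKO replicate 2 was the highest, and the log2 fold change was 5.88 (SE 1.02, limma adjusted p = 0.0157, but 0.0657 without GcKO replicate 2, 0.0543 without Gctrl replicate 2 and 0.0824 with group weights). Majin, which tethers telomeres to the nuclear envelope, had 13.6 and 33.1 TPM in GcKO and was listed at 0 in both Gctrl libraries. Both knockout libraries were clearly above 0 (limma adjusted p = 0.0472, but 0.166 without GcKO replicate 2, 0.0956 without Gctrl replicate 1, 0.1304 without Gctrl replicate 2 and 0.145 with group weights). Ly6k, a GPI-anchored surface gene of germ cells, had 36.2 and 52.3 TPM in GcKO and 0 and 0.345 TPM in Gctrl. Its groups were far apart (limma adjusted p = 0.0278, but 0.0943 without GcKO replicate 2, 0.0741 without Gctrl replicate 1, 0.0806 without Gctrl replicate 2 and 0.0979 with group weights).

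The promoters of Sycp3, which rose, and of Ddx4, a germ cell RNA helicase gene that fell, are shown because both hold the E-box CACGTG, a motif bound by the MYC, MAX and MGA family of factors. Each line gives the 250 bases before the annotated start, 5′ to 3′ on the gene's strand, from RefSeq on GRCm38.p6, with CACGTG in capitals.
Sycp3, chr10:88459337-88459586, + strand: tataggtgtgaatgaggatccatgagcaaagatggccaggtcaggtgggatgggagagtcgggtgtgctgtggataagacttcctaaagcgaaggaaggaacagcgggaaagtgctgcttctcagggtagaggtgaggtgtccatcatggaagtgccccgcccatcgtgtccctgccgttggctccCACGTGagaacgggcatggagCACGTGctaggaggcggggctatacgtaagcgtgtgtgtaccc
Ddx4, chr13:112652311-112652560, - strand: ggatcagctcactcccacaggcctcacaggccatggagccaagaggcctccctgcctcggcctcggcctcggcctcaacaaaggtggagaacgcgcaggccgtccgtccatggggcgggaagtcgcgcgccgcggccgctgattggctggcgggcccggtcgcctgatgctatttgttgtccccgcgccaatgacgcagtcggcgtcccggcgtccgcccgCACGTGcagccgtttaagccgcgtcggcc
CACGTG, which reads the same on both strands, began at -64 and -43 from the start in Sycp3 and at -29 in Ddx4. It was present in 6.05% of 27025 RefSeq promoters of this length and in 6 of the 28 meiotic prophase genes with a promoter in the table. The promoters of these meiotic genes held a median of 12 CG dinucleotides, against 6 over all promoters, and CACGTG itself holds a CG. Whether the motif is more frequent beyond this was not tested. Ddx4 had 177 and 113 TPM in GcKO and 385 and 366 TPM in Gctrl, a log2 fold change of -1.40 (SE 0.31, limma adjusted p = 0.0423, but 0.161 without GcKO replicate 2, 0.0953 without Gctrl replicate 1, 0.114 without Gctrl replicate 2 and 0.121 with group weights).

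Some germline genes of the X chromosome rose. The Rhox homeobox, Mage and Xlr families are multicopy genes, many of them expressed in germ cells. Of 49 listed genes 23 were measured, and 4 passed the test, all higher in GcKO (Xlr3b, Xlr3c, Xlr5c and Rhox6), and 0 were lower. The median log2 fold change was 0.78 (0.45 without GcKO replicate 1 and 1.26 without GcKO replicate 2) and 17 of the 23 lay above 0. With group weights 1 of the 4, Xlr3b, passed. Over all genes with a chromosome in the annotation, 14 of 203 higher genes were X-linked (6.90%), as were 1 of 179 lower genes (0.559%) and 488 of 11169 genes measured (4.37%).

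Xlr3b, Xlr3c and Xlr5c lie near each other on the X chromosome. Their promoters, the 250 bases before the start from RefSeq on GRCm38.p6, are shown for comparison, since all 3 genes rose and the 2 Xlr3 copies are alike, with CG, the dinucleotide that DNA methyltransferases modify, in capitals.
Xlr3b, chrX:73191929-73192178, + strand: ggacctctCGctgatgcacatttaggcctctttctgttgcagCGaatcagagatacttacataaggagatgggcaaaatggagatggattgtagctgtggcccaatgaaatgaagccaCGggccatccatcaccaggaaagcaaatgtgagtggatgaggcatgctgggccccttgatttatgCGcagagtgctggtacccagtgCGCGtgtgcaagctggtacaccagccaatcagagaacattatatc
Xlr3c, chrX:73265391-73265640, - strand: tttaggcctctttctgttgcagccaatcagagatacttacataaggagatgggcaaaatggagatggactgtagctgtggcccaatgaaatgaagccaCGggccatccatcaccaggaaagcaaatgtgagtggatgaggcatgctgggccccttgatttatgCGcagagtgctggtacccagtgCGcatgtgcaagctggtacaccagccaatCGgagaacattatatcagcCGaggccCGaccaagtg
Xlr5c, chrX:73290516-73290765, - strand: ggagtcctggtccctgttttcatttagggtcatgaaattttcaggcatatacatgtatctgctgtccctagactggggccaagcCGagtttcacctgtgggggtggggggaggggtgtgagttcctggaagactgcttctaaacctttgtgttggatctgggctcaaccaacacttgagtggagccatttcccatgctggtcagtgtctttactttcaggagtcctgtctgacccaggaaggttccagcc
The promoters of Xlr3b and Xlr3c share an unbroken run of 119 bases, and neither shares more than 8 with Xlr5c. They hold 6, 6 and 1 CG, against a median of 6 over the 27025 promoters, and 50.5%, 50.5% and 91.7% of promoters held at least as many. Another Xlr3 gene of the list, Xlr3a, named after its values were seen, had a log2 fold change of -0.000147 and did not pass. Copies of a family can exchange reads in counting, so the split between Xlr3b and Xlr3c is uncertain. The likeness of their transcripts was not measured here.

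Xlr3b had 114 and 112 TPM in GcKO and 37.8 and 33.1 TPM in Gctrl, a log2 fold change of 1.65 (SE 0.25, limma adjusted p = 0.00886). It passed in all 4 reduced fits and with group weights. Xlr3c had 145 and 128 TPM in GcKO and 30.7 and 5.33 TPM in Gctrl, with both knockout libraries high and the controls unequal (limma adjusted p = 0.0205, but 0.0525 without GcKO replicate 2, 0.0538 without Gctrl replicate 2 and 0.0656 with group weights). Xlr5c had 130.1 and 106 TPM in GcKO and 11.8 and 12.2 TPM in Gctrl (limma adjusted p = 0.0237, but 0.0554 without GcKO replicate 2, 0.05499 without Gctrl replicate 1, 0.0768 without Gctrl replicate 2 and 0.139 with group weights). In all 3 genes both knockout libraries were above both controls. Rhox6, a homeobox gene of the reproductive cluster, had 44.8 and 6.13 TPM in GcKO and 0.128 and 0.142 TPM in Gctrl, with the 2 GcKO libraries far from each other (limma adjusted p = 0.0251, but 0.05602 without Gctrl replicate 1, 0.08098 without Gctrl replicate 2 and 0.0717 with group weights).

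Genes that oocytes store for growth and for the early embryo lay mostly below 0. Of 55 maternal effect and oocyte growth genes 51 were measured, and 2 passed the test, both lower in GcKO (Elobl and Fbxw13), and 0 were higher. Of the 51, 46 had a negative log2 fold change, with a median of -0.58. Without GcKO replicate 2, 34 of the 51 were negative and the median was -0.27, and without GcKO replicate 1 the median was -0.84. With group weights 0 of the 51 passed.

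Elobl, an elongin B-like gene of oocytes (ENSMUSG00000057534, - strand of GRCm38 chr11:88964658-88966931), had 1236 and 1062 TPM in GcKO and 3852 and 3563 TPM in Gctrl. The groups were well apart, with a log2 fold change of -1.69 (SE 0.27, limma adjusted p = 0.00992, but 0.0795 with group weights). Fbxw13, one of a cluster of oocyte F-box genes, had 17.2 and 16.5 TPM in GcKO and 51.8 and 76.9 TPM in Gctrl. It fell by 1.85 on the log2 scale (limma adjusted p = 0.0242, but 0.0614 without GcKO replicate 2, 0.108 without Gctrl replicate 2 and 0.113 with group weights). Nlrp4a, a member of the oocyte NLRP family, had 4.42 and 1.13 TPM in GcKO and 8.59 and 22.7 TPM in Gctrl, which did not pass (limma adjusted p = 0.0641).

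Zona pellucida genes and factors that the oocyte secretes had the lowest median of the 38 lists, -0.89 over 11 of 12 genes measured, with 8 below 0 and 0 past the test in either direction. Without GcKO replicate 2 this median was -0.25. Gdf9, a growth factor that acts on granulosa cells and whose promoter drives the Cre, had 66.9 and 31.7 TPM in GcKO and 109.7 and 197 TPM in Gctrl. Both knockout libraries were below both controls, yet the difference did not pass (limma adjusted p = 0.0667). Zp3, the sperm-binding zona glycoprotein gene, had 377 and 242 TPM in GcKO and 442 and 709 TPM in Gctrl (limma adjusted p = 0.214). Oosp1, an oocyte secreted protein gene, had 1.42 and 1.78 TPM in GcKO and 7.599 and 6.03 TPM in Gctrl, a low level with groups apart (limma adjusted p = 0.0634). Bmp15, the partner of Gdf9, had 7.28 and 1.497 TPM in GcKO and 5.72 and 16.7 TPM in Gctrl, with overlapping groups (limma adjusted p = 0.33).

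**Figure D3:**
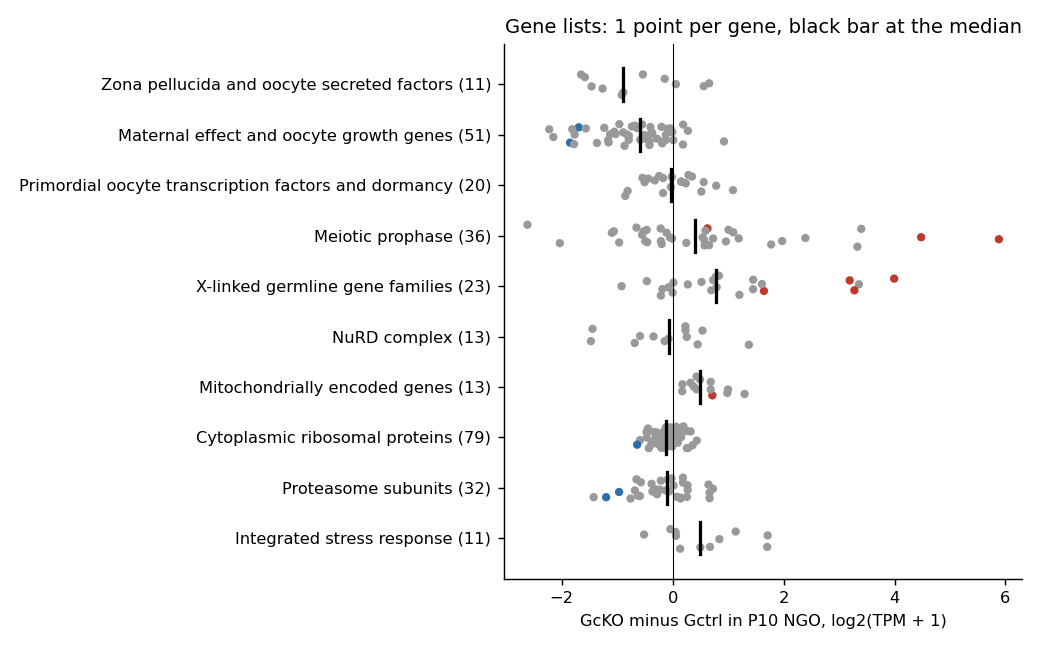
Log2 fold change of GcKO over Gctrl in P10 NGO (horizontal axis) for the measured genes of 10 gene lists, with the number of genes in brackets, 1 point per gene and a black bar at the list's median. Red points passed the test higher in GcKO and blue points lower. The zona and maternal lists lie to the left of 0 (medians -0.89 and -0.58) and, of the 10 lists drawn, the meiotic and X-linked lists reach furthest to the right.

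The transcription factors and signalling genes that set up and keep the reserve showed no gene past the test. Of 23 listed 20 were measured, 0 were called in either direction and the median log2 fold change was -0.02 (0.04 when library medians were equalised). Nobox, a homeobox activator of oocyte genes, had 129 and 148 TPM in GcKO and 126 and 69.6 TPM in Gctrl (limma adjusted p = 0.269). Sohlh1, a helix-loop-helix factor of primordial oocytes, had 70.2 and 56.4 TPM in GcKO and 95.2 and 89.2 TPM in Gctrl (limma adjusted p = 0.398). Both stayed well expressed in the knockout. Pik3ca, the catalytic subunit gene of the PI3 kinase that triggers primordial follicle activation, had 13.4 and 12.8 TPM in GcKO and 23.95 and 23.4 TPM in Gctrl, with knockout libraries below controls (limma adjusted p = 0.268). Ybx2, an RNA-binding protein gene of germ cells, had 25.5 and 17.7 TPM in GcKO and 45.2 and 33.98 TPM in Gctrl (limma adjusted p = 0.395).

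The genes of the NuRD complex did not pass either, with 0 called among the 13 of 15 genes measured, Chd4 included, and a median of -0.07. Mbd3, a methyl-CpG-binding domain protein gene of the complex, had 4.38 and 2.87 TPM in GcKO and 14.5 and 9.35 TPM in Gctrl, both knockout libraries below both controls (limma adjusted p = 0.0989). Hdac1, a deacetylase of the complex, had 19.6 and 29.3 TPM in GcKO and 9.93 and 7.51 TPM in Gctrl, the reverse (limma adjusted p = 0.147). Among 22 other remodelling ATPases and partners 2 rose and 0 fell, with a median of 0.25. Baz1a, a subunit of the ACF remodeller, had 11.03 and 6.14 TPM in GcKO and 0.959 and 0.639 TPM in Gctrl (limma adjusted p = 0.00965). Smarcad1, an SNF2-family ATPase, had 9.65 and 12.6 TPM in GcKO and 1.002 and 0.279 TPM in Gctrl (limma adjusted p = 0.0119, but 0.0541 without Gctrl replicate 2). Both genes also passed with group weights.

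Of 16 DNA methylation genes, 1 fell and 0 rose, with a median of -0.04 (0.02 with equalised library medians). It was Mbd1, a methyl-CpG binding protein gene, with 0.156 and 0.0183 TPM in GcKO and 2.35 and 6.35 TPM in Gctrl (limma adjusted p = 0.0478, but 0.0553 without GcKO replicate 1, 0.1198 without GcKO replicate 2, 0.204 without Gctrl replicate 2 and 0.1295 with group weights). Zfp57, a KRAB zinc finger gene that keeps imprints, had 128 and 109.6 TPM in GcKO and 159 and 218 TPM in Gctrl and did not pass (limma adjusted p = 0.138). Of 13 imprinted genes 1 rose, Zdbf2, with 6.58 and 19.4 TPM in GcKO and 1.34 and 0.226 TPM in Gctrl (limma adjusted p = 0.0264, but 0.102 without GcKO replicate 2, 0.1198 without Gctrl replicate 2 and 0.0712 with group weights), and the median was 0.18. Among 23 Polycomb and H3K9 methylation genes 0 passed, with a median of -0.46.

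Among survival genes 1 of 9 BCL2 family genes and 0 of 21 p53 family and target genes passed, beside 3.44% of the 11437. Of the 9 BCL2 family genes, with a median of -0.21 (0.09 with a pseudocount of 0.1), 1 fell. It was Bcl2, the anti-apoptotic founder of the family, which had 0 and 0.0811 TPM in GcKO and 3.52 and 11.5 TPM in Gctrl (limma adjusted p = 0.00905) and also passed with group weights. Bcl2l2, another survival member, had 6.27 and 2.69 TPM in GcKO and 0.348 and 0.256 TPM in Gctrl, the opposite direction without passing (limma adjusted p = 0.0513). The p53 family and target genes had a median of 0.14. Of 23 piRNA pathway genes 1 rose and 1 fell, with a median of -0.19. Gtsf1l, a relative of the piRNA factor Gtsf1, had 232 and 259 TPM in GcKO and 35.6 and 5.04 TPM in Gctrl (limma adjusted p = 0.0441, but 0.0663 without GcKO replicate 1, 0.121 without GcKO replicate 2, 0.208 without Gctrl replicate 2 and 0.223 with group weights), and the gene that fell was Ddx4. Tdrd9, a piRNA helicase gene, had 25.2 and 42.1 TPM in GcKO and 12.3 and 2.297 TPM in Gctrl (limma adjusted p = 0.0555).

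Among 8 genes of the two-cell stage embryo, with a median of -0.38, 1 rose. This was Zscan4a, with 16.01 and 2.55 TPM in GcKO and 0.171 and 0.188 TPM in Gctrl. The GcKO libraries were unequal (limma adjusted p = 0.0423, but 0.067 without GcKO replicate 1, 0.0895 without Gctrl replicate 1, 0.121 without Gctrl replicate 2 and 0.0851 with group weights), and the Zscan4 copies are alike enough to share reads. Of 89 listed developmental transcription factors, 2 were measured, with a median of 1.08, and 0 passed. Of 27 interferon-induced genes 7 were measured and 3 of these rose (Ifi27, Ddx58 and Ifitm2), with a median of 2.63. The summed TPM of this list was 96.1 and 142 in GcKO and 23.0 and 9.18 in Gctrl. Ddx58, the sensor RIG-I, had 10.9 and 6.38 TPM in GcKO and 0.0368 and 0.101 TPM in Gctrl (limma adjusted p = 0.0157, but 0.05199 without Gctrl replicate 2 and 0.0618 with group weights). Ifitm2 had 32.2 and 49.7 TPM in GcKO and 4.95 and 0.873 TPM in Gctrl (limma adjusted p = 0.0352, but 0.119 without GcKO replicate 2, 0.166 without Gctrl replicate 2 and 0.1397 with group weights), whereas Ifitm6 and Ifit1bl2, not on that list, fell.

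The 13 protein-coding genes of the mitochondrial genome all lay above 0, with a median of 0.49 (0.27 without GcKO replicate 2 and 0.75 without Gctrl replicate 1, with up to 2 of 13 below 0 when 1 library was left out), and their share of all TPM was 4.22% and 5.70% in GcKO and 3.73% and 3.11% in Gctrl. Of these 13 genes mt-Nd1, a subunit gene of complex I, was the one call, with 3428 and 4480.1 TPM in GcKO and 2728 and 2088 TPM in Gctrl (limma adjusted p = 0.0261, but 0.111 without GcKO replicate 2, 0.128 without Gctrl replicate 2 and 0.07301 with group weights). The mitochondrial transfer RNA gene mt-Tl2, outside the list and added after its values were seen, was lower, at 0 in both GcKO libraries and 1.83 and 6.04 TPM in Gctrl (limma adjusted p = 0.0119, and 0.0465 with group weights). Nuclear oxidative phosphorylation genes had 0 of 62 past the test and a median of 0.00 (0.06 with equalised library medians). Cytoplasmic ribosomal proteins had a median of -0.11 over 79 genes, with 0 higher and 1 lower, Rps16, which had 133 and 123 TPM in GcKO and 179.9 and 221 TPM in Gctrl (limma adjusted p = 0.0461, but 0.102 without GcKO replicate 2, 0.186 without Gctrl replicate 2 and 0.139 with group weights). Proteasome genes had 2 lower of 32 and a median of -0.11. Psmb5, a catalytic subunit, had 99.2 and 73.01 TPM in GcKO and 189 and 205 TPM in Gctrl (limma adjusted p = 0.0133, but 0.0541 without Gctrl replicate 2). Psmc3 had 361 and 207 TPM in GcKO and 500.0 and 572 TPM in Gctrl (limma adjusted p = 0.04997, but 0.143 without GcKO replicate 2, 0.0697 without Gctrl replicate 1, 0.1798 without Gctrl replicate 2 and 0.0979 with group weights).

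Of 29 glutathione and thiol redox genes 1 rose, Gstm5, a glutathione transferase gene with 206 and 301 TPM in GcKO and 87.2 and 43.7 TPM in Gctrl (limma adjusted p = 0.00792), and the call held in the 4 reduced fits and with group weights, but not with the 8 P10 libraries alone (0.247). Of 15 cell contact and fertilization surface genes 2 rose, Ly6k and Gja1, with a median of 0.65. Gja1, the connexin 43 gene that granulosa cells use for their gap junctions, had 15.4 and 14.1 TPM in GcKO and 0.101 and 0.0697 TPM in Gctrl (limma adjusted p = 0.0251, but 0.0669 without GcKO replicate 2, 0.05602 without Gctrl replicate 1, 0.08304 without Gctrl replicate 2 and 0.114 with group weights). Of 33 granulosa markers 6 were measured and 0 passed, with a median of 0.87, and Amh, Nr5a1, Krt19, Hsd17b1, Amhr2 and Irx3 were at 0 in all 4 libraries. The summed TPM of the granulosa list was 65.9 and 65.6 in GcKO and 35.3 and 47.2 in Gctrl, higher in both knockouts, and its part in the Gja1 result was not tested.

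The markers of other cells were low throughout. Summed TPM was 32.3 and 37.6 in GcKO and 43.5 and 18.4 in Gctrl for 24 stromal markers, and 4.79 and 10.1 in GcKO and 6.24 and 0.864 in Gctrl for 15 endothelial markers. It was 25.8 and 4.86 in GcKO and 11.7 and 11.99 in Gctrl for 10 surface epithelium markers. In each of these 3 lists the groups overlapped. Integrated stress response genes had a summed TPM of 362 and 470.4 in GcKO and 231 and 201 in Gctrl, with no overlap, 0 of 11 past the test and a median of 0.50 (0.13 without GcKO replicate 2). Immediate early and dissociation genes had 0 of 15 past the test and a median of 0.25, and undifferentiated spermatogonia genes 0 of 5 and a median of 0.62. Of the stromal, endothelial, blood and surface epithelium markers 4, 2, 1 and 1 were measured, with medians of 0.45, 0.70, 1.09 and -0.11 (the last 0.08 with quantile normalization). None of the granulosa, stromal, endothelial, blood or surface epithelium markers passed the test.

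The 13 measured genes of the histone list, which does not hold H4c8, had H2bu2 as the one call and a median of 0.19, and primordial germ cell and pluripotency genes had Ddx4 as the only call of 14 and a median of 0.41. There were 0 calls among 36 mitotic cell cycle genes (median 0.24), 27 maternal mRNA storage genes (median -0.03, but 0.03 with equalised library medians), 19 meiotic arrest and maturation genes (median -0.11), 11 glycolysis genes (median -0.10), 1 striated muscle gene (-0.04, but 0.02 with equalised library medians) and 8 Bex and ferritin genes (median 0.84).

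Some of the genes that rose in NGO also rose in growing oocytes of the same genotypes. In P10 GO, 9.12% of genes tested were higher in GcKO and 4.69% lower. Of the 209 genes higher in NGO, 65 were also higher in GO past the test, which is 31.1% of the NGO rises and 3.48% of the GO rises, and 10 were lower in GO. Of the 184 genes lower in NGO, 23 were also lower in GO (12.5% of the NGO falls and 2.39% of the GO falls), and 20 were higher in GO. These 88 genes became 180 without GcKO NGO replicate 1, 135 without Gctrl NGO replicate 1 and 33 with group weights. The P10 NGO and GO comparisons share no library, but they share 1 estimate of spread per gene, so their calls are not independent. With the 8 P10 libraries fitted alone, the 88 genes became 10. Equalising library medians moved the median log2 fold change of all genes tested in GO to -0.15, against 0.06 without it.

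**Figure D4:**
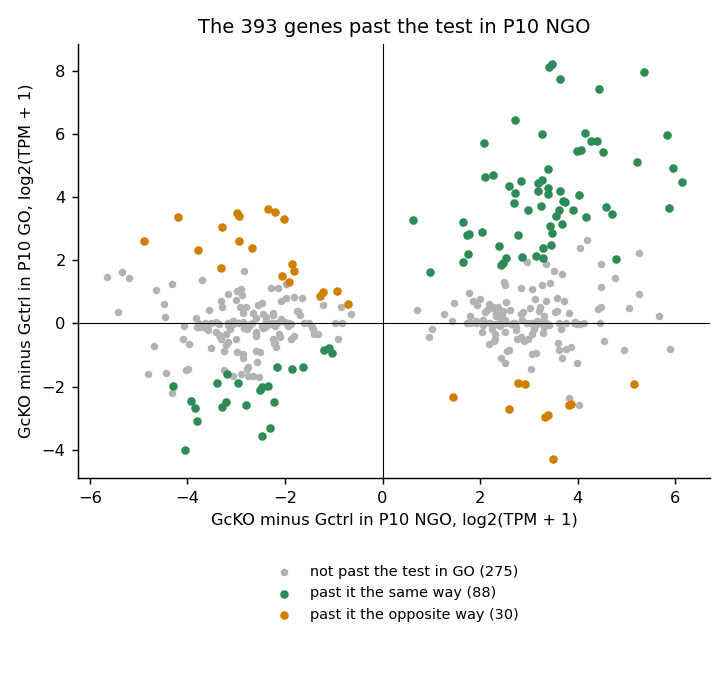
Log2 fold change of GcKO over Gctrl in P10 GO (vertical axis) against that in P10 NGO (horizontal axis) for the 393 genes past the test in NGO, 1 point per gene. Green points (88) passed the test the same way in GO, orange points (30) the opposite way, and grey points (275) did not pass in GO. Most green points lie at the upper right.

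Among the genes higher in both, Zfp54 had 325 and 370.4 TPM in GcKO GO and 4.88 and 10.2 TPM in Gctrl GO (limma adjusted p = 7.61e-06), its highest levels of any group. Sycp3 had 1921 and 1762 TPM in GcKO GO and 229 and 154 TPM in Gctrl GO, a log2 fold change of 3.29 (SE 0.13) in GO (limma adjusted p = 3.54e-07). This was larger than in NGO by 2.66, where the controls were still high (limma adjusted p = 6.76e-05 and 0.000281 with group weights for the difference). Xlr3c had 540.2 and 486 TPM in GcKO GO and 12.5 and 34.4 TPM in Gctrl GO (limma adjusted p = 0.00037). Zscan4a had 66.6 and 124 TPM in GcKO GO and 0.0578 and 0.0588 TPM in Gctrl GO (limma adjusted p = 2.91e-05), with controls near 0.

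A direct test of the difference between the effects in GO and NGO called 1527 genes (7.46% of genes tested), and 789 with group weights. Among the 393 genes called in NGO, 191 passed this test. Of the genes named for their difference, some rose in NGO and were lower in GO knockouts. Cpeb4, a factor of cytoplasmic polyadenylation, had 20.98 and 19.9 TPM in GcKO NGO and 0.509 and 0.427 TPM in Gctrl NGO (limma adjusted p = 0.0107). In growing oocytes it had 4.31 and 0.339 TPM in GcKO GO and 12.2 and 17.8 TPM in Gctrl GO (limma adjusted p = 0.0157), the opposite direction (difference -6.44, limma adjusted p = 0.00133 and 0.00379 with group weights). Tcf7l2, a transcription factor of WNT signalling, had 9.49 and 25.7 TPM in GcKO NGO and 0.772 and 0.4501 TPM in Gctrl NGO (limma adjusted p = 0.0136, but 0.0503 without GcKO replicate 2 and 0.0543 without Gctrl replicate 2). It had 11.6 and 4.77 TPM in GcKO GO and 70.98 and 55.3 TPM in Gctrl GO (limma adjusted p = 0.00493), again the opposite (difference -6.29, limma adjusted p = 0.000882 and 0.00281 with group weights). Fam107b had 32.04 and 24.1 TPM in GcKO NGO and 2.63 and 1.26 TPM in Gctrl NGO (limma adjusted p = 0.00664). In growing oocytes Fam107b had 28.6 and 8.48 TPM in GcKO GO and 128 and 129 TPM in Gctrl GO (limma adjusted p = 0.00123), also the opposite (difference -6.28, limma adjusted p = 0.000347 and 0.000985 with group weights).

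In the other direction, Serpinb6c was listed at 0 in both GcKO NGO libraries and had 16.5 and 3.29 TPM in Gctrl NGO, which did not pass (limma adjusted p = 0.0576). In growing oocytes Serpinb6c had 42.1 and 26.9 TPM in GcKO GO and 0.189 and 0 TPM in Gctrl GO, the opposite direction (limma adjusted p = 0.000796, difference 8.11, limma adjusted p = 0.000944 and 0.004096 with group weights). Meiob, a single-stranded DNA binding protein gene of meiotic recombination, had 0.353 and 0.413 TPM in GcKO NGO and 19.8 and 2.46 TPM in Gctrl NGO, which did not pass (limma adjusted p = 0.128). In growing oocytes Meiob had 58.9 and 12.9 TPM in GcKO GO and 0.146 and 0.223 TPM in Gctrl GO, a rise of 4.61 (SE 0.79) (limma adjusted p = 0.00204), and the difference between the cell classes was 7.23 (limma adjusted p = 0.00268 and 0.00585 with group weights). Sohlh1 differed as well, since it had 22.5 and 45.2 TPM in GcKO GO and 1.12 and 0.935 TPM in Gctrl GO, while in NGO it was well expressed in both genotypes (difference 4.57, limma adjusted p = 0.000142 and 0.000517 with group weights).

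The younger knockouts, made with another Cre and set against heterozygous controls, shared few calls. At P5, 1.05% of genes tested were higher in DcKO and 0.313% lower, and 7 of the 209 higher genes (3.35% of them, 3.27% of the P5 rises) and 5 of the 184 lower genes (2.72% and 7.81%) passed the same way. At P1, 0.86% were higher and 0.84% lower, and 12 of the 209 (5.74% and 6.82%) and 5 of the 184 (2.72% and 2.91%) passed the same way. Of the 209 higher genes 160 (76.6%) had a positive log2 fold change at P5, against 44.9% of the 11437, and of the 184 lower genes 129 (70.1%) had a negative one, against 55.1%. At P1 these shares were 56.0% against 44.4% and 64.1% against 54.4%. In P10 GO they were 65.6% against 58.9% and 52.7% against 40.1%. Fewer genes were called at P5 and P1 than in GO, so counts of shared calls cannot be compared directly between these groups.

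Zfp54 was higher in the knockout at each stage, with 36.6 and 23.96 TPM in DcKO and 6.05 and 4.15 TPM in Dctrl at P5 and 2.29 and 3.41 TPM in DcKO and 0 and 0 TPM in Dctrl at P1. Arhgdib had 129.7 and 118 TPM in DcKO and 3.57 and 9.98 TPM in Dctrl at P1 (limma adjusted p = 0.0211), and at P5 it had 300.1 and 451 TPM in DcKO and 144 and 13.97 TPM in Dctrl, where the 2 controls were far apart and the difference did not pass (limma adjusted p = 0.099). Xlr5c had 210.5 and 248 TPM in DcKO and 73.6 and 9.86 TPM in Dctrl at P5 (limma adjusted p = 0.0351). Elobl was lower in the knockout at P5, with 656 and 390.1 TPM in DcKO and 1818 and 1977 TPM in Dctrl (limma adjusted p = 0.007195), and at P1, with 4.83 and 6.38 TPM in DcKO and 12.4 and 21.8 TPM in Dctrl (limma adjusted p = 0.0212). Gdf9 was lower in the knockout at P1 (3.96 and 1.38 TPM in DcKO and 27.6 and 37.4 TPM in Dctrl, limma adjusted p = 0.00215), and did not pass at P5 (limma adjusted p = 0.155) or in P10 NGO.

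**Figure D5:**
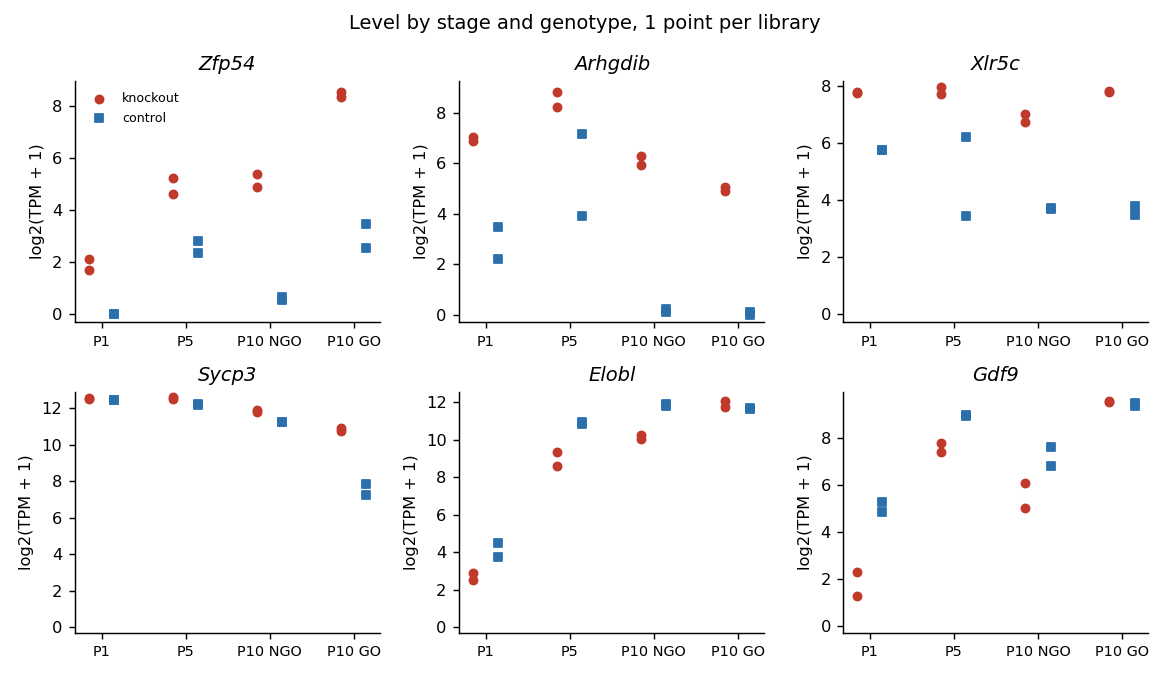
Level of 6 genes as log2(TPM + 1) (vertical axis) in NGO at P1, P5 and P10 and in GO at P10 (horizontal axis), 1 point per library, knockout as circles to the left and control as squares to the right, 2 libraries each. Zfp54 is higher in the knockout at each stage, Sycp3 parts most in GO, and in Elobl and Gdf9 the knockout points lie below the control points in NGO at each age but not in GO.

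By annotation the called genes were as follows, with no test. Of genes with an annotation, 75.9% of the higher genes, 73.7% of the lower genes and 79.3% of the 11437 were protein coding, and the median exon length was 2358, 2428 and 3499 bases. Of the 393 genes, 119 had a predicted or unnamed symbol. A comparison of promoter CG content over these sets was void, because 62.7% of the higher genes and 61.4% of the lower genes matched a promoter in the table.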

How the data were processed

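RNA was sequenced from oocytes isolated from mouse ovary, 16 libraries in 8 groups of 2. Per the labels' protocols, total RNA was made into cDNA libraries with a low-input kit and sequenced as paired reads. Per the submitters' processing notes, reads were handled with STAR 2.5.4b and Trimmomatic 0.39, with featureCounts 2.0.1 and SAMtools 1.9 (roles and order are not given in the sources used here), on the mm10 (GRCm38) genome. The authors deposited TPM per gene, which scales for gene length and library size. The annotation, gene lengths, strand setting and formula behind TPM are not given in the sources used here, so reads of overlapping and antisense genes and of near-identical copies cannot be told apart.

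Read depth was recovered from the deposited TPM with GENCODE M21 exon lengths, and 98.7% to 99.1% of values under 20 reads came within 0.05 of a whole number. The number of reads limits the precision of low genes, and no interval is given for them.

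The 20470 genes that reached TPM 1 in 2 or more of the 16 oocyte libraries were tested on log2(TPM + 1) with limma 3.58.1 in R 4.3.3 in 1 fit of all 8 groups (8 residual degrees of freedom), with empirical Bayes moderation and a trend on level. Tests were two-sided, p-values were adjusted by the Benjamini-Hochberg method over all 20470 genes, and a gene was called at an adjusted p under 0.05. A fold change on this scale understates the change of low genes. The method was also run on simulated data. The outcome of that run is not given here, so it vouches for none of the calls. Alternatives were another pseudocount, other filters and scalings, fits of fewer libraries, each library left out, a replicate block and group weights.

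The genes named are Chd4, the 12 largest rises and 12 largest falls among called genes (predicted and pseudogene models left out, groups not overlapping, and 1 group averaging 5 TPM or more), up to 6 genes each way with the largest difference between GO and NGO, and, from 38 lists of 1147 genes, up to 4 genes with the smallest p and any called. The genes described and the lists were chosen with earlier results of these data known. Promoters came from RefSeq (GRCm38.p6), and 7661 of the 11437 genes had one. Gene positions came from GENCODE M21. Figures were drawn with matplotlib 3.10.9 in Python 3.11.15.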

Additional observations from a re-analysis of the deposited data

Results flagged for a closer look

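For 35 of the 78 genes followed by name, the effect of the deletion differed between growing and non-growing oocytes at P10 by a direct test of the difference (limma, Benjamini-Hochberg adjustment over all 20470 genes), and 22 of the 35 also passed with group weights. The 13 that did not were Klhl13, H2bu2, Srsf12, Tdrd9, Gja1, Xlr3b, Elobl, Ifitm6, Mbd3, Tcl1b1, Arsk, Pigc and Zfp7. Many of the 78 genes were named for a large NGO effect or for this difference itself. The count of 35 therefore describes them and supports nothing further. Values below are the log2 fold change of GcKO over Gctrl in GO minus that in NGO.

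The difference was positive in 22 genes. It was largest in Serpinb6c (8.11), Meiob (7.22), Lrrc19 (7.22), Spint4 (7.02), Ccdc189 (6.49) and Hesx1 (6.35), all of which had a negative fold change in NGO and a positive one in GO. Among the genes that fell in NGO it was 5.68 in Pudp, 5.56 in H4c8, 3.997 in Zfp7, 3.59 in Pigc, 3.30 in Arsk, 2.90 in Bcl2, 2.85 in Tcl1b1, 2.31 in Ifitm6, 1.94 in Elobl and 0.936 in Rps16. Among the oocyte and NuRD genes that did not pass in NGO it was 4.57 in Sohlh1, 2.44 in Mbd3 and 1.52 in Tcl1. Among the genes that rose in NGO it was 3.72 in Zscan4a, 2.66 in Sycp3 and 1.57 in Xlr3b, each with a larger rise in GO.

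The difference was negative in 13 genes. In Cpeb4 (-6.44), Psg16 (-6.41), Tmem274 (-6.30), Tcf7l2 (-6.29), Fam107b (-6.28), Trdmt1 (-6.18), Mzt2 (-5.79), Smarcad1 (-4.84), Gja1 (-4.61) and Tdrd9 (-2.86) the fold change was positive in NGO and negative in GO. In Srsf12 (-3.35), H2bu2 (-3.32) and Klhl13 (-2.73) it was positive in both and smaller in GO, but none of these 3 differences passed with group weights (limma adjusted p = 0.0645, 0.0512 and 0.0576). The cause of these differences was not tested.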

How the results depend on the processing

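The 393 calls in P10 NGO became 626 with a pseudocount of 0.1, 211 with no filter on low genes, 681 with adjustment over the 11437 genes alone, 939 with quantile normalization, 41 with the 8 P10 libraries fitted alone, 0 with the 4 P10 NGO libraries alone (limma, 1286 at an unadjusted p under 0.05) and 122 with group weights, and ranged from 293 to 1273 with 1 library left out. The share of calls higher in GcKO, 53.2%, ranged from 37.5% to 80.9% with 1 library left out. The 88 genes called the same way in NGO and GO became 141, 47, 146, 196 and 10 under the first 5 of these settings, 33 with group weights, and 62 to 180 with 1 library left out. The 1527 genes whose effect differed between GO and NGO became 560 with the 8 P10 libraries and 789 with group weights. A TPM filter of 5, equalised library medians and no trend on level gave 428, 475 and 382 calls. The cause of these changes was not tested, beyond the fewer libraries fitted.

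Same-numbered P10 NGO libraries did not deviate together (r = -0.02 over 11437 genes). With 2 libraries a group this cannot exclude that the numbers pair the samples. With a replicate block there were 341 calls, 55.1% of them higher in GcKO, 77 genes called the same way in both cell classes and 1341 genes with different effects. Of the 78 genes followed by name, 54 were called. None of these 54 reversed in any setting, but 54 lost the call with the 4 P10 NGO libraries alone, 46 with the 8 P10 libraries, 27 with group weights, 23 with no filter, 9 with the block and 5 to 31 with 1 library left out. With a pseudocount of 0.1, 5 lost it, and 1 lost it with equalised library medians. Without the trend on level 8 lost it, Sycp3, mt-Nd1, Rps16, Psmc3, Ddx4, Psmb5, Gtsf1l and Majin. Their limma adjusted p was then 0.292, 0.229, 0.243, 0.1565, 0.0914, 0.062, 0.0611 and 0.0561. Spint4, not called in NGO, had a log2 fold change between -2.46 and 0.42 when 1 library was left out. Depth left genes under about 1 TPM resting on few reads, and the 2 libraries a group limit every p-value.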
